A study of Homo sapiens with 24 samples.

Results

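Peaks of N1-methyladenosine (m1A) on noncoding RefSeq transcripts were collected from 10 peak lists of HEK293T cells, a human embryonic kidney line. A peak was a member when it lay on a transcript whose RefSeq identifier marks it as noncoding (NR_) and which was not a ribosomal RNA entry. The lists held 4373 such peaks on 1551 transcripts. Peaks of a transcript that shared at least 1 nt were joined, which gave 2885 noncoding regions of 38299 regions in all, of which 35402 lay on coding transcripts.

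The conditions were wild-type cells (WT), cells with an ALKBH3 knockout (KO), and, for the stress comparisons, wild-type cells left untreated (UT), given 50 µM H2O2 for 30 min (H2O2) or kept without serum for 16 h (Starve). Each condition had 2 replicate lists of peaks in RNA pulled down with an anti-m1A antibody. Input RNA was sequenced for each condition too, but its use in peak calling is not stated. ALKBH3 is a demethylase that removes m1A from RNA. All groups share the same line and growth medium with 10% serum before treatment, the RNA was enriched for polyadenylated molecules, and the labels do not say how many clones the knockout represents or whether replicates were separate cultures. P-values therefore measure only the spread between these lists, which may be technical. In the labels, UT libraries are assigned the Starve lists, while a pair of lists carries the UT name, and that naming was followed in every comparison with UT. ALKBH3 itself had 0 peaks in each list, so the knockout could not be checked from these files.

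m1A carries a methyl group on the Watson-Crick face of adenosine, which blocks normal base pairing and stalls reverse transcriptase. In abundant RNAs it is best known from tRNA and ribosomal RNA, and in messenger RNA it has been mapped mostly toward the 5′ part of transcripts. Long noncoding RNAs (lncRNAs) are made by RNA polymerase II like messenger RNAs and are usually capped, and most are spliced and polyadenylated. Host genes of small nucleolar RNAs (snoRNAs) release a snoRNA from an intron, while the spliced exons often have no known product. A noncoding isoform of a coding gene is a splice form that RefSeq lists without a protein, and its sequence largely repeats that of the coding messenger RNA.

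Symbols from a RefSeq gene table split the members into classes. Noncoding isoforms of 641 coding genes held 1608 regions. Noncoding genes without a coding transcript held 976 regions on 477 genes, namely 627 regions on 317 genes of lncRNA and other types, 297 on 140 pseudogenes and 52 on 20 snoRNA host genes. The other 301 regions lay on 139 transcripts whose identifier the table did not hold. The table lists 10527 noncoding genes, so 4.53% of them had a peak in any list.

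Some of these noncoding genes had their peaks near the transcript start, and the stretches around the starts that RefSeq gives for them (promoter table, GRCh38.p14) are shown here. The most repeated region of each gene shown begins within the first 50 nt of its transcript. The median summit of each of those regions lies past these 50 nt. Each stretch runs 5′ to 3′ on the gene's strand, with 20 bases before the start in lower case and the first 50 transcribed bases in capitals. CHASERR is shown at both starts listed for it, at chr15:92882823-92882892 (plus strand) and chr15:92883276-92883345 (plus). The others lie at chr15:41283970-41284039 (plus) for OIP5-AS1, chr16:54928837-54928906 (minus) for CRNDE and chr20:36050911-36050980 (minus) for NORAD. The snoRNA host genes shown are SNHG7 at chr9:136728135-136728204 (minus) and SNHG5 at chr6:85678684-85678753 (minus). The transcripts of the deposited lists belong to another build, so a start shown may not be the first base of the transcript that carried the peak.
CHASERR, upstream start: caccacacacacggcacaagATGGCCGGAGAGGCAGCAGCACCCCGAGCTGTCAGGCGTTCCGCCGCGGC
CHASERR, downstream start: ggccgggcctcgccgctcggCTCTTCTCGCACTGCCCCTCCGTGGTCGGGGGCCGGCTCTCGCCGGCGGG
OIP5-AS1: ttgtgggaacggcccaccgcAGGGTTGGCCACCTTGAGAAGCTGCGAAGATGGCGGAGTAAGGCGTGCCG
CRNDE: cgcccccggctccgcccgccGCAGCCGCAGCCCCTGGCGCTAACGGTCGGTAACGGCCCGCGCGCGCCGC
NORAD: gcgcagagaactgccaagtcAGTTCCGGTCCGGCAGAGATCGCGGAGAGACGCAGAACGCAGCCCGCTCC
SNHG7: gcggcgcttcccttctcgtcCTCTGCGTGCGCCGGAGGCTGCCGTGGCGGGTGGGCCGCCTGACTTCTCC
SNHG5: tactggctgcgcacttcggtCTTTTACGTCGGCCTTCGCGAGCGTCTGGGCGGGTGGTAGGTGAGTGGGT

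The first 50 bases of these genes were rich in G and C, from 62.0% in OIP5-AS1 to 80.0% in CRNDE. Among the 75 noncoding genes with a region in 2 or more lists and a summit in the first 300 nt, 41 had an entry in the promoter table, with 52 starts. Their median G+C over the first 50 bases was 70.0% (quartiles 65.5% and 78.0%), against 56.0% over the 5251 starts of all noncoding genes in the table. Coding genes with such a region had the same median, 70.0%, over 3962 starts. For noncoding genes with a region in 2 or more lists but none near the start, the median was 60.0% over 45 starts. These values are descriptions without a test, and the lists hold no expression value that would allow genes of similar level to be compared.

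Some starts of snoRNA host genes read C followed by pyrimidines, the letters known from messenger RNAs of ribosomal proteins. A C followed by 4 pyrimidines opened 7 of 30 host starts (23.3%), 3.58% of starts of all noncoding genes and 4.07% of all starts in the table. Among host genes with a peak it was 4 of 18 starts (22.2%), close to the share of all host starts. SNHG5 opened with a run of 5 pyrimidines and SNHG7 with 4, which is too short for that rule. The longest run printed, 8 pyrimidines, opened the downstream start of CHASERR, which is not a host gene. The motif GTTCNA, the sequence around the m1A of the tRNA T-loop, was searched on both strands of the first 50 bases and was in none of the 7 stretches printed. It occurred on the transcribed strand in 1 of the 52 starts of genes with a repeated region near the start, against 2.33% of all starts, and on the other strand in 1 of them, against 2.22%. Only 1.16% of peaks on noncoding genes of lncRNA and other types had a summit in the first 60 nt. The search therefore did not reach the bases under most summits and cannot tell whether the motif lies there.

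Noncoding transcripts took a similar share of every list. The share ran from 6.6% of 3410 peaks in the second WT list (95% Wilson interval 5.81 to 7.48%) to 7.46% of 7871 peaks in the first UT list (6.9 to 8.06%). The number of noncoding peaks followed the length of the list, from 149 in the first WT list to 827 in the first Starve list. The intervals of the lists with the lowest and highest share overlapped, and the shares were not tested against each other. These intervals cover counting error only.

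**Figure D1:**
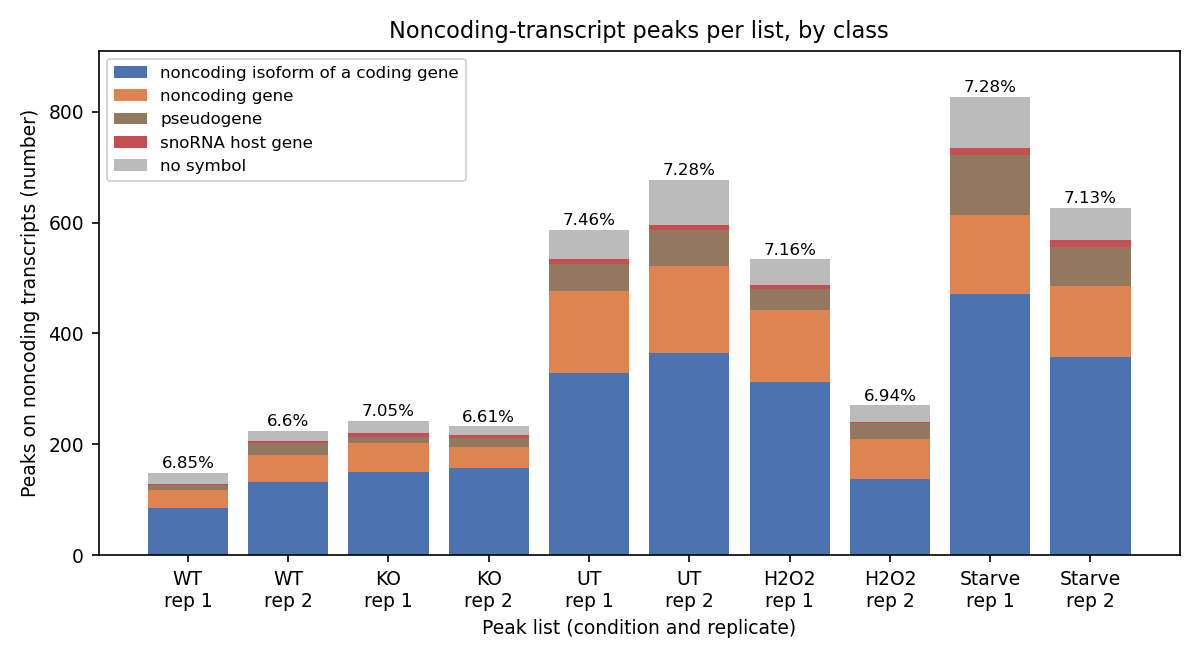
Number of peaks on noncoding transcripts in each of the 10 lists (bars, stacked by class), with their share of all peaks of the list printed above. The share lies between 6.6% and 7.46% although the number runs from 149 to 827.

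Most members were called in a single list, as were most regions of the series. Of the 2885 noncoding regions, 2209 (76.6%) were held by 1 list, against 73.5% of all regions, and 75 (2.6%) by 6 or more lists, against 3.19% of all regions. Only 4 noncoding regions were in all 10 lists, on SPRNP1, on the isoforms of EI24 and SLC25A1 and on NR_033230, which has no symbol here. The WT and KO lists alone held 167 regions, the UT, H2O2 and Starve lists alone 2369, and 349 were in lists of both sets.

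Replicate lists shared few noncoding regions except in KO. Both KO lists held 159 of 315 noncoding regions (50.5%), against 51.2% of all KO regions. Both lists held 54 of 320 noncoding regions in WT (16.9%, all regions 21.4%) and 96 of 1168 in UT (8.22%, all regions 9.42%). They held 54 of 751 in H2O2 (7.19%, all regions 8.0%) and 95 of 1359 in Starve (6.99%, all regions 8.79%). The share was below that of coding regions in 5 of 5 conditions, by 1.93 percentage points on average (SD 1.68, n = 5; exact two-sided sign-flip permutation test, p = 0.0625, Benjamini-Hochberg adjusted over 12 tests 0.178), and 0.0625 is the smallest p that 5 conditions allow.

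Noncoding regions that recurred lay nearer the start of their transcript than those called once. The summit was in the first 300 nt for 480 of 2209 noncoding regions in 1 list (21.7%), 308 of 601 in 2 to 5 lists (51.2%) and 55 of 75 in 6 or more lists (73.3%). For noncoding isoforms the same shares were 19.4%, 55.7% and 88.1%, and for noncoding genes 26.1%, 46.0% and 51.9%. The rise was thus steeper for isoforms in these counts, although the 27 regions of noncoding genes in 6 or more lists leave a wide interval (34.0 to 69.3%, Wilson). The same shares were not computed for coding regions, so the rise is not shown to be particular to noncoding transcripts. The UT, H2O2 and Starve lists alone held 2369 of the 2885 noncoding regions. In those lists 29.2 to 45.3% of coding peaks had a summit in the first 300 nt, against 55.5 to 74.1% in WT and KO. Few summits lay in the first 60 nt, 0.32% of isoform peaks, 1.16% of peaks on noncoding genes of lncRNA and other types and 0.413% of coding peaks. Peak length limits this share, since the median noncoding peak was at least 100 nt long in every list. On OIP5-AS1 a peak of the second Starve list began at nucleotide 4 and had its summit at 75. The share therefore does not measure how much signal lies next to the transcript start.

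Peaks on noncoding genes were less often near the start than coding peaks in 8 of 10 lists, and peaks on noncoding isoforms more often in 9 of 10, but neither difference passed the adjusted threshold. Of peaks on noncoding genes, 52.3 and 64.0% had a summit in the first 300 nt in the WT lists and 54.9 and 59.3% in the KO lists. The coding shares in the same lists were 55.5 and 74.1% (WT) and 73.1 and 71.7% (KO). In the UT, H2O2 and Starve lists the share on noncoding genes ran from 28.8 to 39.4% and that on coding transcripts from 29.2 to 45.3%. All 4 WT and KO lists lay above the 6 UT, H2O2 and Starve lists, for noncoding genes, isoforms and coding transcripts alike.

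The mean difference over lists was −5.17 percentage points for noncoding genes (SD 6.52, n = 10; exact two-sided sign-flip permutation test, p = 0.0254, adjusted 0.152) and 2.78 points for isoforms (SD 2.77, n = 10; exact p = 0.00586, adjusted 0.0703). With a limit of 100 nt in place of 300 both turned, to 2.94 points (exact p = 0.00195) and −2.02 points (exact p = 0.00586). The direction therefore depends on the limit, and 0 of 12 tests of position, fold, width and repeat passed after adjustment (2 of 12 had an unadjusted p under 0.05). The median fold enrichment within a list differed from that of coding peaks by 0.04 on the log2 scale for noncoding genes (SD 0.10, n = 10; exact permutation p = 0.305, adjusted 0.406). The median length of noncoding peaks was 109 nt and that of coding peaks 110 nt, averaged over lists.

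**Figure D2:**
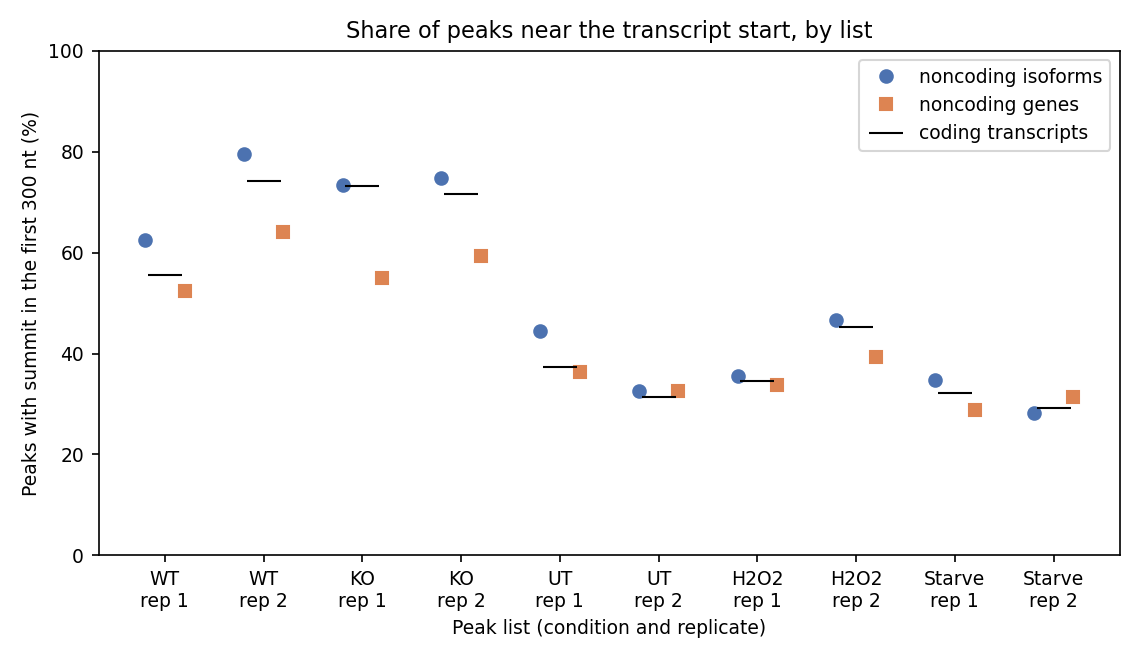
Percent of peaks with a summit in the first 300 nt of the transcript, for each list: noncoding isoforms (circles), noncoding genes including pseudogenes and snoRNA hosts (squares) and coding transcripts (bars). The WT and KO lists lie above the UT, H2O2 and Starve lists in all 3 classes, and squares are below the bar in 8 of 10 lists.

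Among genes without a coding transcript, SPRNP1 was the only one with a region in all 10 lists. It is a transcribed pseudogene of SPRN, which encodes a protein related to the prion protein. Its region covered nucleotides 21 to 578 of the transcript, and single peaks had summits between nucleotides 199 and 346. The deposited fold enrichment, the authors' value for a peak over its local background, was 12.8 and 34.6 in the WT lists, 9.58 and 7.52 in the KO lists, 15.1 and 10.2 in UT, 10.6 and 34.0 in H2O2, and 20.6 and 27.8 in Starve. The 2 KO values were the lowest, but a fold is relative to the background of its own list and was not tested between lists. It had the highest fold of all noncoding peaks in 2 lists, the second WT list and the first Starve list.

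CHASERR, a lncRNA transcribed beside the chromatin remodeller gene CHD2 and known to restrain it, had a region at nucleotides 8 to 421 of NR_037600 in 8 lists. The fold was 6.65 and 8.53 in the WT lists, 3.17 and 4.77 in the KO lists, 4.14 and 2.84 in H2O2 and 3.57 and 5.22 in Starve, and no peak was called in either UT list. Peak shape differed among lists. In both KO lists a single peak ran from about the start (nucleotides 26 and 32) to nucleotides 421 and 414, with summits at 307 and 295. In both WT lists the summit was at nucleotides 97 and 100, and in the first H2O2 list at 79, whereas the second H2O2 list held only a peak at nucleotides 312 to 411. The region on the other isoform, NR_037601, was in 7 lists and also absent from UT.

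OIP5-AS1, also called cyrano, is a cytoplasmic lncRNA known for a site that binds miR-7. A region at nucleotides 4 to 139 was in 6 lists with summits at nucleotides 75 to 104. The fold was 10.4 and 5.76 in KO, 9.43 in the first UT list, 5.1 in the first H2O2 list and 7.88 and 10.2 in Starve, while both WT lists held no peak on the transcript. CRNDE, a lncRNA named for its expression in colorectal neoplasia, had a region at nucleotides 34 to 538 in 7 lists, with folds from 2.85 to 4.77. NORAD, a lncRNA that binds PUMILIO proteins, had a region at nucleotides 39 to 169 in both KO lists (4.47 and 5.51), the second WT list (3.58) and the second Starve list (4.76). Its summit was at nucleotide 124 in 3 of those 4 lists and at 113 in the Starve list. The other 5 NORAD regions, between nucleotides 1026 and 4436, were each in 1 list, all of H2O2 or Starve.

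MALAT1, an abundant lncRNA of nuclear speckles, differed from these in position. Its recurrent region lay at nucleotides 8349 to 8650, and the gene spans 8779 nt in the GRCh38.p14 table, so the region was in the last part of the transcript. The fold was 12.4 and 5.31 in WT, 5.98 and 8.57 in UT, 6.45 in the first H2O2 list and 9.09 in the first Starve list. Neither KO list held a peak anywhere on MALAT1. Summits lay at nucleotides 8507 and 8573 in WT and 8430 to 8573 in UT, and at nucleotide 8577 in the first H2O2 list, so the peaks of different lists did not share a single summit.

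NEAT1, the lncRNA that builds paraspeckles, had peaks in UT, H2O2 and Starve lists and in no WT or KO list. The most repeated region, nucleotides 5 to 169 of the short form, was in the first UT list (fold 4.35), the first H2O2 list (8.47) and both Starve lists (4.75 and 5.62). A peak at nucleotides 1946 to 2290 had a fold of 28.0 in the first H2O2 list and was called in no other list. KCNQ1OT1, an imprinted antisense lncRNA, likewise had none in WT or KO. Its 9 regions lay between nucleotides 60875 and 64129, and the one at 63358 to 63660 was in 5 lists. TERC, the RNA template of telomerase, had a region at nucleotides 21 to 142 in the second WT list (fold 4.23) and the first H2O2 list (7.9).

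**Figure D3:**
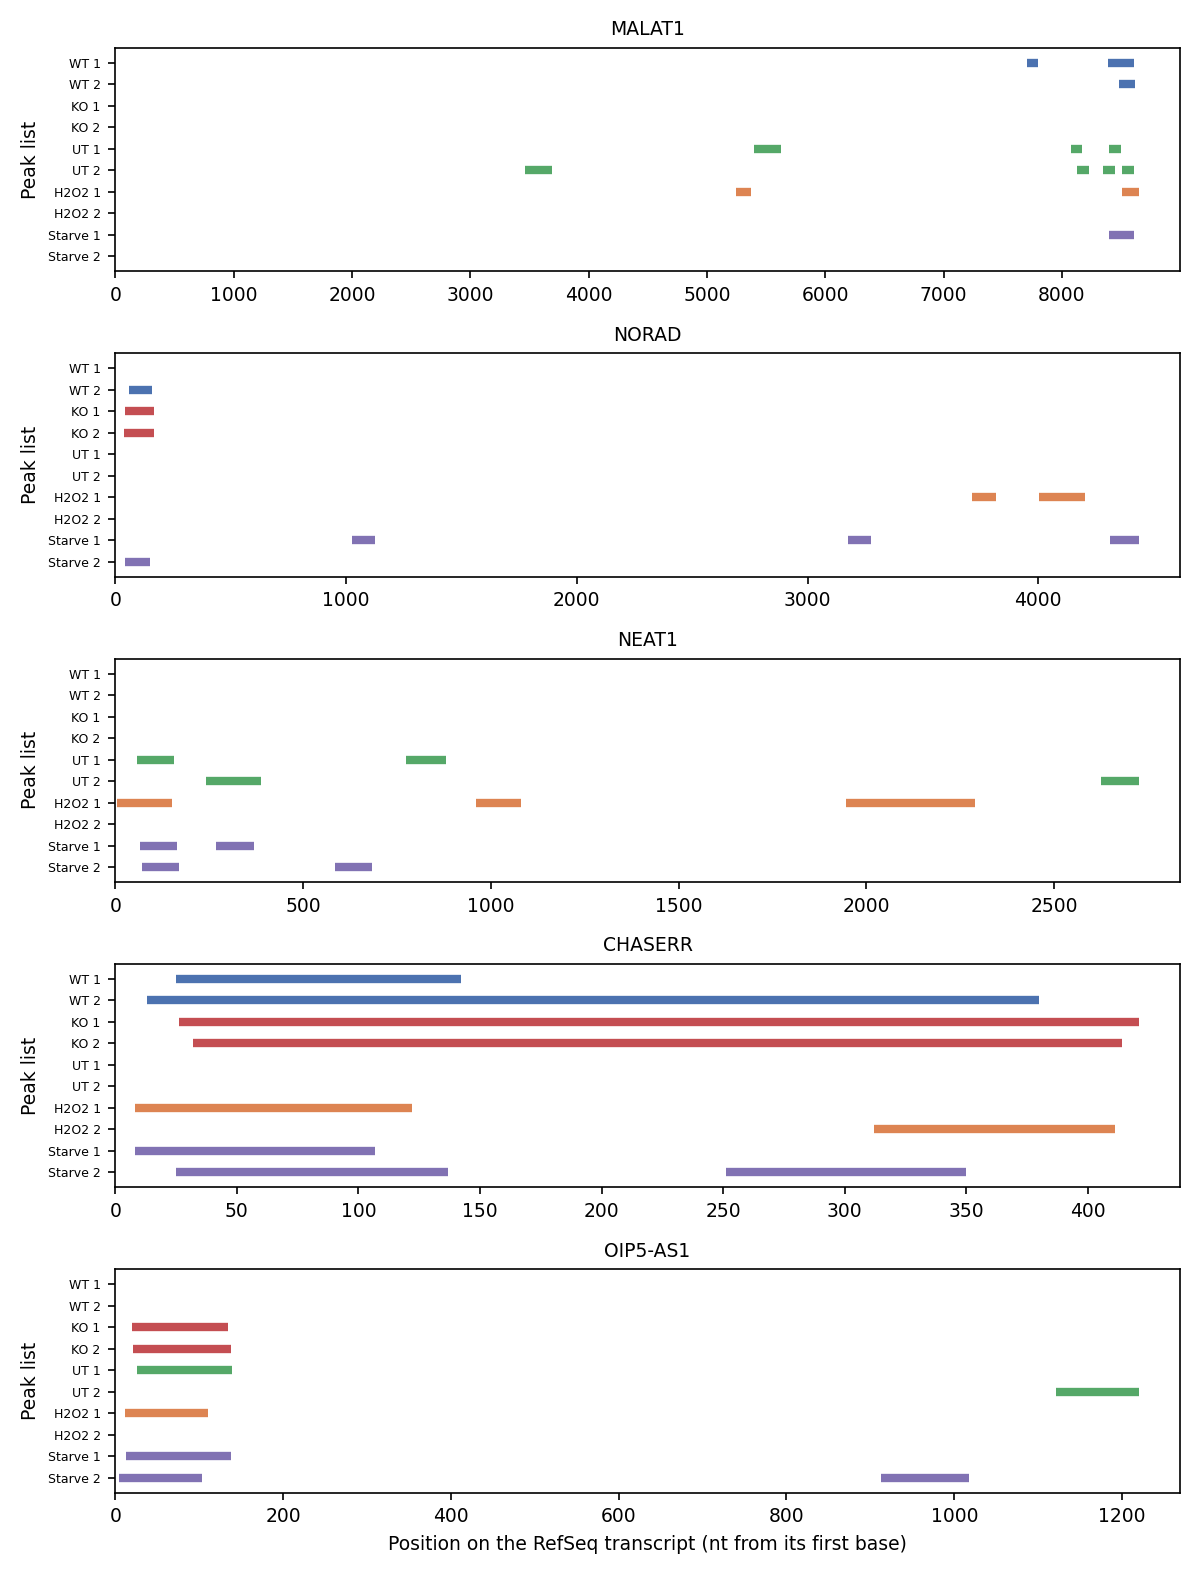
Peaks of each list (bars, one row a list, coloured by condition) along 5 lncRNA transcripts; the x axis is the position in nucleotides from the first base of the RefSeq transcript and ends just past the last peak. MALAT1 peaks gather between nucleotides 8349 and 8650 with none in KO, whereas OIP5-AS1, NORAD and CHASERR peaks repeat within the first 421 nt.

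Of the 32 long-known lncRNAs in a list chosen with earlier results of these data known, 14 had a peak, 11 a region in 2 or more lists, 9 a region in both lists of a condition and 4 a region in 6 or more lists. That is 43.8% with a peak, against 4.53% of all noncoding genes in the table. The list was made of well-known and mostly abundant RNAs, and these files hold no expression values. Other classes were sparse. Numbered intergenic lncRNAs had a peak in 60 of 2112 genes, microRNA hosts and precursors in 7 of 1998 and structural small RNAs in 3 of 625. None of 8 lncRNA markers of other cell types had a peak, among them H19 and MEG3, but a peak list without a call does not show that an RNA was absent.

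Antisense, divergent, intronic and overlapping transcripts had a peak in 154 of 2515 genes (6.12%), 43 of them in 2 or more lists and 7 in 6 or more. FMR1-AS1, transcribed from the opposite strand of FMR1, had a region at nucleotides 259 to 533 in 7 lists. On NR_024499 the fold was 4.01 in the second WT list, 2.63 in the first KO list, 11.0 and 6.57 in UT, 28.8 and 11.5 in H2O2 and 3.69 in the first Starve list. Its 4 isoforms carried the region in the same number of lists, with a fold in the first UT list of 6.99 on NR_024503 against 11.0 on NR_024499. It gave the highest noncoding fold of the first H2O2 list, 30.2 on NR_024503. FMR1 itself had no peak on a coding transcript in any of those 7 lists.

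The sources used here do not say whether the counting used strand, so reads of an antisense gene and of its sense partner cannot be told apart where they overlap. Over 150 such genes whose partner is a coding gene, 114 of 412 peaks (27.7%) had a peak on a coding transcript of the partner in the same list. NUTM2A-AS1, TRIM52-AS1 and RAET1E-AS1, each with a peak in 7 lists, had none with a partner peak. For OIP5-AS1 it was 2 of 7 lists and for IPO9-AS1 5 of 6. TRIM52-AS1 had its region at nucleotides 10 to 136 of NR_102762 in 6 lists, with a fold of 4.51 and 7.61 in WT, 3.4 in the first KO list, 6.12 in the first UT list, and 3.41 and 19.8 in H2O2. ARRDC1-AS1 had a region at nucleotides 82 to 271 in both WT lists (6.76 and 3.5) and both UT lists (6.44 and 4.64) and in no other.

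The snoRNA host genes had a peak in 20 of 34 genes, but no region in 6 or more lists. Of their peaks 40 of 74 (54.1%) had a summit in the first 300 nt, a share pooled over lists that differ in length and in their share near the start. SNHG7 was the most repeated, at nucleotides 15 to 327 of NR_024543, with folds of 2.7 and 3.11 in KO, 4.72 in the first H2O2 list and 2.66 and 4.53 in Starve. SNHG5 (nucleotides 48 to 155; 5.8 and 3.57) and SNHG9 (48 to 163; 3.34 and 3.76) had a region in both KO lists and in no other list. GAS5, known as a decoy of the glucocorticoid receptor, had a region at nucleotides 23 to 145 with folds of 2.78 and 11.9 in H2O2 and 2.87 in the first Starve list.

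**Figure D4:**
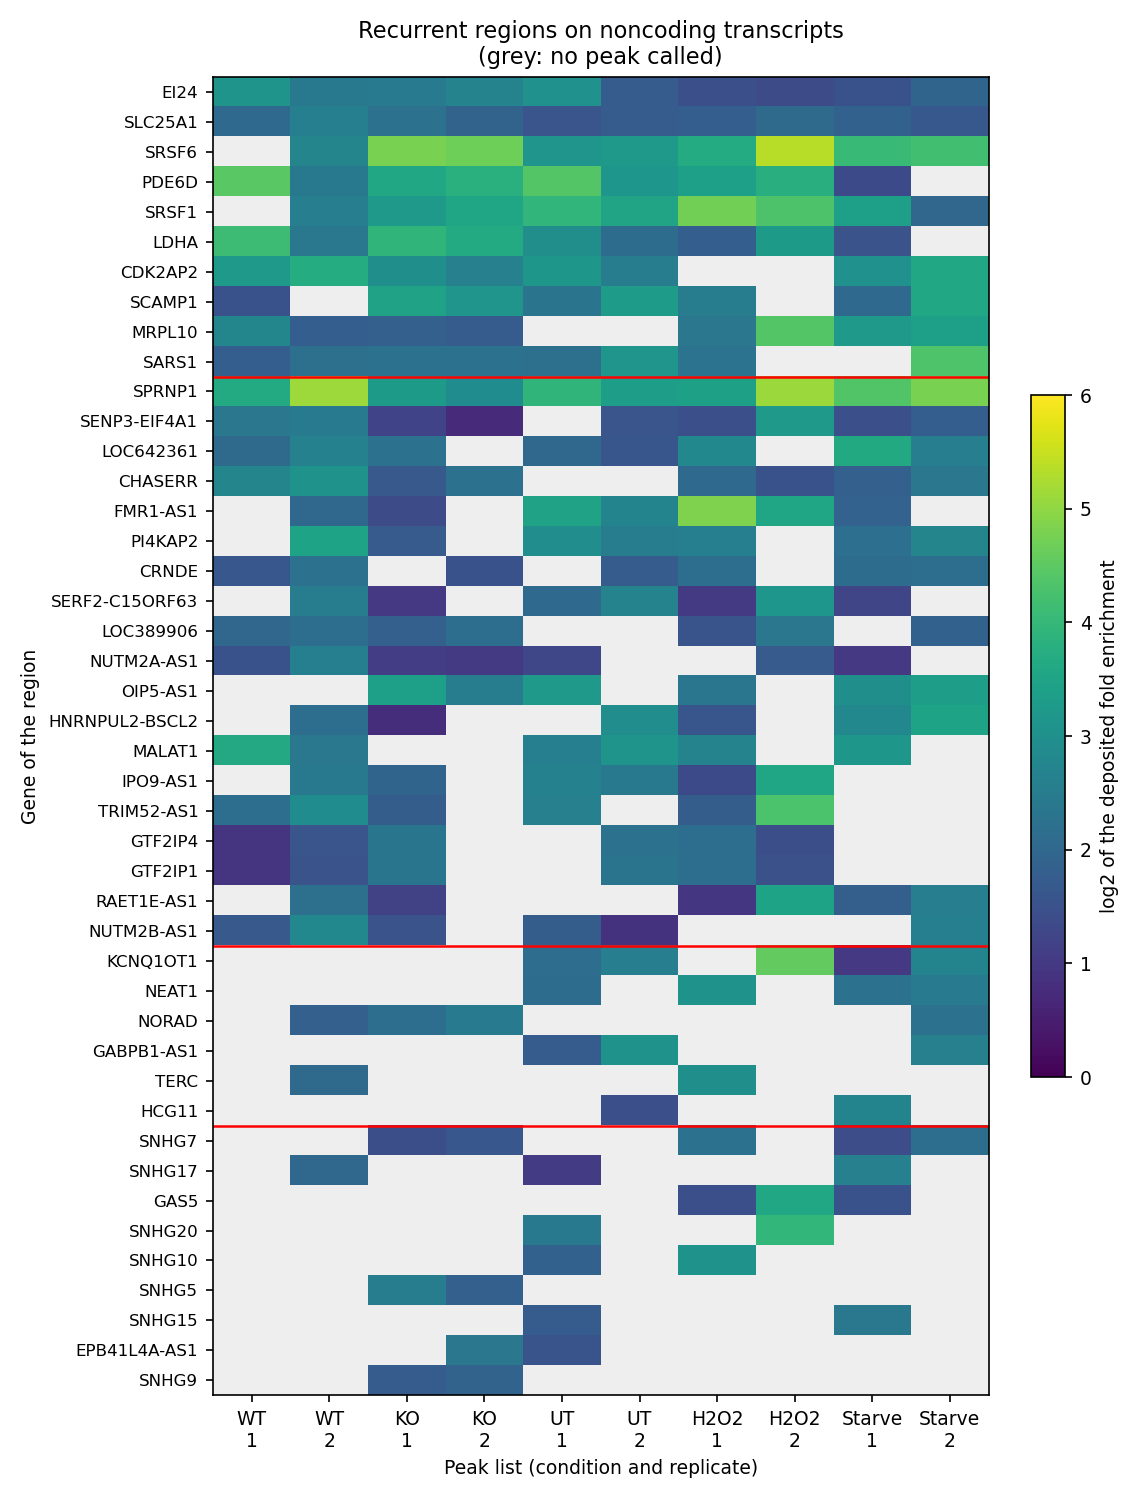
Colour shows log2 of the deposited fold enrichment of 1 region a gene (rows) in each of the 10 lists (columns), and grey means that no peak was called. Red lines separate, from the top, noncoding isoforms, noncoding genes in 6 or more lists, other long-known lncRNAs and snoRNA host genes; EI24, SLC25A1 and SPRNP1 are filled in all 10 lists, while host genes are mostly grey.

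Most noncoding isoform peaks lay on genes that also had a coding-transcript peak in the same list, at any position. Of 2497 isoform peaks, 2330 (93.3%) had a peak on a coding transcript of the same gene in the same list, from 80.0 to 96.5% of a list's isoform peaks. For 1313 of them (52.6%) a coding peak had the same pileup and length. The signal of those 1313 peaks thus cannot be told apart from that of the coding transcript. For the other isoform peaks, overlap with the coding signal was not tested.

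The isoform regions in the most lists were those of EI24, an endoplasmic reticulum protein induced by p53, and SLC25A1, the mitochondrial citrate carrier. The EI24 region lay at nucleotides 73 to 239 of NR_110769, with folds of 8.6 and 5.37 in WT, 5.42 and 6.46 in KO, 8.19 and 3.35 in UT, 2.76 and 2.65 in H2O2 and 2.84 and 3.79 in Starve. The SLC25A1 region lay at nucleotides 97 to 279, with folds between 3.01 and 6.01. The splicing factors SRSF6 and SRSF1 had a region in 9 lists, each missing only from the first WT list. SRSF6, at nucleotides 48 to 324 of NR_034009, had a fold of 6.69 in the second WT list, 27.5 and 25.4 in KO, 8.7 and 9.5 in UT, 12.9 and 41.2 in H2O2 and 16.7 and 18.1 in Starve. Its peaks had the highest fold of all noncoding peaks in both KO lists. Regions of PDE6D, which carries prenylated proteins (nucleotides 51 to 234 of NR_110994), and LDHA, lactate dehydrogenase A (193 to 329 of NR_028500), were in 9 lists each and missing from the second Starve list, although LDHA isoforms had a peak somewhere in all 10 lists.

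Comparing KO with WT asks which regions depend on ALKBH3. A region counted as KO-only when both KO lists and neither WT list held it. Of 517 noncoding regions in these 4 lists 93 were KO-only (18.0%), against 16.1% of all 7322 regions, and 15 were WT-only (2.9%), against 4.04%. The noncoding shares were thus near those of all regions in both directions, and 2 lists against 2 allow no exact p below 0.333 for a single region. Leaving out the first KO list raised the KO-only count to 151 and leaving out the first WT list raised the WT-only count to 118, since 1 list is then enough. With lists shortened to equal length the counts were 59 and 17. Of 68 genes with a KO-only region 56 had no peak in either WT list. The same count was not made over all genes, so it has no reference here. The WT lists were also shorter, with 2175 and 3410 peaks against 3447 and 3524 in KO.

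The KO-only noncoding genes with the highest lower fold were ANKRD13C-DT (9.41 and 8.15), MIR3648-1 (7.66 and 6.93), OIP5-AS1 (10.4 and 5.76) and the pseudogenes TPTEP2 (6.57 and 4.73) and H3P6 (5.65 and 4.66). MIR3648-1 is a microRNA precursor encoded within the ribosomal RNA transcription unit, and its peak at nucleotides 48 to 158 had a pileup of 1990 and 2055, against a median of 109 and 106 over noncoding peaks of the KO lists. Its signal cannot be told apart from that of ribosomal RNA precursors. Of 15 snoRNA host regions in these lists 5 were KO-only (33.3%, all regions 16.1%), on 3 genes, since 3 of them are copies on isoforms of SNHG7 beside SNHG5 and SNHG9. Isoform regions of TMEM70 (20.6 and 19.1), an assembly factor of the mitochondrial ATP synthase, TAFAZZIN (8.89 and 8.8), which remodels cardiolipin, and NFU1 (11.2 and 8.78), an iron-sulphur cluster carrier, were KO-only too. TMEM70 and NFU1 had a coding-transcript peak in both KO lists and in neither WT list, and TAFAZZIN in both KO lists and 1 WT list. The TMEM70 isoform was also called in both UT lists, at nucleotides 79 to 193 (5.2 and 4.26). Its region was thus not confined to knockout cells.

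The WT-only noncoding genes were MALAT1 (nucleotides 8392 to 8620; 12.4 and 5.31), ARRDC1-AS1 (6.76 and 3.5), the pseudogene ANAPC1P2 (3.32 and 3.61) and LINC01106 (5.16 and 2.87). WT-only isoform regions included those of IP6K2 (9.58 and 8.01), an inositol hexakisphosphate kinase, and ANKRD11 (7.22 and 8.11), a chromatin regulator. IP6K2 had a coding-transcript peak in both WT lists and in neither KO list, whereas ANKRD11 had one in all 4.

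The comparison of H2O2 with UT concerns m1A after oxidative stress. Of 1758 noncoding regions 20 were H2O2-only (1.14%, all regions 1.16%) and 51 were UT-only (2.9%, all regions 2.85%). With lists shortened to equal length the counts were 7 and 8. Of the 18 genes with an H2O2-only region 6 had no peak elsewhere in a UT list. Of the 36 genes with a UT-only region 18 had none in an H2O2 list. Neither count was made over all genes. H2O2-only regions included the pseudogenes DNM1P41 (8.1 and 14.5) and SMG1P5 (6.17 and 9.26), PINK1-AS (3.78 and 6.9) and PCGF3-AS1 (3.77 and 20.0), and GAS5 was the only snoRNA host. Of isoforms, NOP56 (15.9 and 26.0), a core protein of snoRNA particles, ATG9A (13.7 and 11.6), an autophagy protein, and JPT1 (15.7 and 5.21) led. SMG1P5, PINK1-AS, NOP56 and ATG9A had another peak of the gene in a UT list. UT-only regions lay on MALAT1 at nucleotides 8349 to 8502 (5.98 and 8.57), MIR4453HG at 1 to 120 (9.43 and 5.12), ARRDC1-AS1 (6.44 and 4.64), BMS1P20 (4.45 and 5.23) and LINC00999 (4.44 and 6.54). For MALAT1 the first H2O2 list did hold a peak just beyond, at nucleotides 8507 to 8650, so the transcript itself was called in both conditions. Isoform regions of CAMTA1 (17.6 and 14.4), SZRD1 (13.1 and 13.3) and NEIL1 (6.98 and 6.9), a DNA glycosylase, were UT-only as well.

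The Starve lists were set against the same UT lists as H2O2, so both stress comparisons share their control. Of 2263 noncoding regions 47 were Starve-only (2.08%, all regions 2.39%) and 36 UT-only (1.59%, all regions 1.94%). This balance turned to 3 Starve-only and 15 UT-only with lists shortened to equal length, and to 18 and 25 at a fold of 4 or more. Of 38 genes with a Starve-only region 15 had no peak in a UT list. Of 26 genes with a UT-only region 11 had none in a Starve list, and again neither count was made over all genes. Starve-only regions lay on the pseudogene POLR2J4 (4.85 and 15.9), on ERCC6L2-AS1 (5.96 and 14.0), on LINC01551 (5.79 and 4.95) and on CHASERR (NR_037601, 4.86 and 5.68). LOC441081 (6.61 and 33.6) had the highest lower fold among noncoding genes, but some of its peaks lay past the span of its gene. Among isoforms, MRPL10 (9.39 and 10.4), a mitochondrial ribosomal protein, BAX (7.57 and 19.3), which promotes apoptosis, and NR1D2 (6.26 and 8.14), a clock repressor, led. UT-only regions lay on LOC101927830 (9.34 and 7.14), IPO9-AS1 (6.22 and 5.35), ARRDC1-AS1, LINC00999 and the pseudogene CRYBB2P1 (7.07 and 3.81).

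UT and WT are both untreated wild-type cells by the labels, and were compared as a reference. Of 1341 noncoding regions 46 were UT-only (3.43%, all regions 4.02%) and 15 WT-only (1.12%, all regions 1.59%). With lists shortened to equal length the balance turned to 12 UT-only and 25 WT-only. UT-only regions of noncoding genes included MIR4453HG (9.43 and 5.12), KCNQ1OT1 at nucleotides 63521 to 63660 (4.44 and 5.95) and LINC00999. WT-only regions lay on CHASERR (NR_037601, 8.75 and 12.0), LOC389906 (3.92 and 4.5) and ZNF503-AS2 (2.02 and 1.86). These counts were of the same order as those of H2O2 and Starve against UT. CHASERR and the MRPL10 isoform region, which were Starve-only against UT, were also WT-only against UT.

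**Figure D5:**
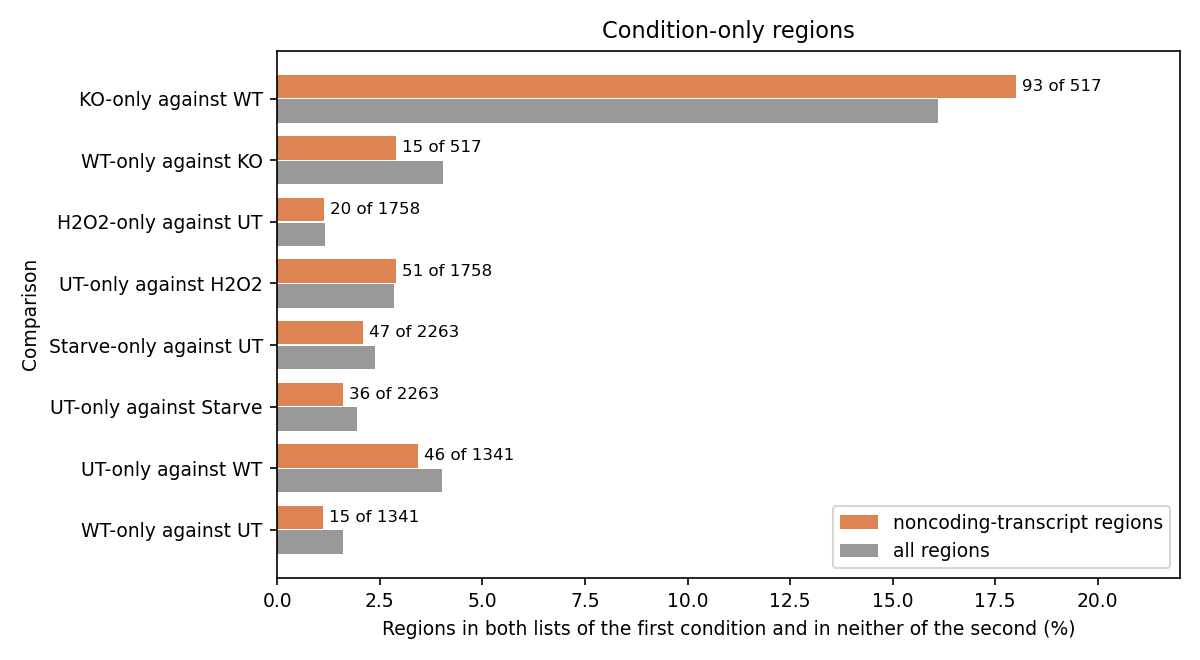
Percent of regions held by both lists of the first condition and neither list of the second, for noncoding-transcript regions (orange, with counts) and all regions (grey). The 2 bars of a comparison differ by less than 2 percentage points in all 8 comparisons, and KO-only against WT is the longest pair.

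Several members could not be placed with confidence. The symbols of 22 read-through genes join those of 2 coding neighbours, and 92 of their 102 peaks (90.2%) had a peak on a coding transcript of either neighbour in the same list. SENP3-EIF4A1, at nucleotides 541 to 808 in 9 lists with folds of 1.64 to 9.4, is of this kind. Pseudogenes named for a coding gene shared fewer peaks with it, 74 of 195 (37.9%) on 76 genes, and 11 (5.64%) with the same pileup and length. In addition 64 peaks on 8 transcripts ended past the span of their gene in the table, 35 of them on TTTY4C, a multicopy testis transcript. A TTTY4C region in 7 lists lay at nucleotides 74550 to 74856, while the gene spans 36810 nt. The positions of these 64 peaks and their assignment to these genes are therefore uncertain. Another 52 peaks lay beyond nucleotide 110000 of NR_038191, which has no symbol here.

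For WT and KO, coverage with and without demethylase treatment was deposited in windows of 10 nt. Treating the pulled-down RNA with a demethylase removes m1A and lets reverse transcriptase read through, so that treated coverage can exceed pulldown coverage at a modified base. The values are scaled within a region, so only positions were compared. On SPRNP1 the window with the largest treated minus pulldown coverage began at nucleotides 204 and 206 in WT and at 199 and 197 in KO, so the 4 libraries placed it within 9 nt. SNHG5 and MIR3648-1 placed it at the same window in both KO replicates, at nucleotides 46 to 55 and 66 to 75. On MALAT1 it was at nucleotides 8407 to 8416 and 8436 to 8445 in WT, and on CHASERR NR_037600 at 261 to 270 in both KO replicates but at 36 to 45 and 246 to 255 in WT. The KO replicates placed it 60 nt apart on NORAD, 40 on SNHG7, 87 on SNHG9 and 30 on OIP5-AS1.

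Pooled over all classes of noncoding transcript, positions within 10 nt of each other were about as frequent as on coding transcripts. The position agreed within 10 nt between replicates in 15 of 36 noncoding blocks of windows in WT (41.7%, 95% Wilson interval 27.1 to 57.8%) and 389 of 760 coding blocks (51.2%). In KO it was 69 of 139 noncoding blocks (49.6%, 41.5 to 57.8%) and 994 of 1961 coding blocks (50.7%). The noncoding intervals include the coding shares. Windows covered 18 noncoding transcripts in all 4 files.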

How the data were processed

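Per the submitters' processing notes, the authors used Trim Galore, HISAT and MACS2 with the build hg19, without versions. Per the file headers, MACS2 was run on each replicate with RefSeq transcripts as its sequences. For each peak the authors deposited the pileup (a coverage signal at the summit), the fold enrichment (a ratio over local background), and −log10 p and q values. The windowed files hold coverage signal scaled by the authors to a sum of about 200 a region, and a deposited score equal to treated minus pulldown coverage. The use of the input as control is not stated in these sources. Descriptions of the untreated libraries name the Starve lists, and the lists named UT were used for UT, on which every UT comparison rests.

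Symbols came from a RefSeq gene table (GRCh38.p14, names only), matching 1412 of 1551 noncoding transcripts (91.0%). Peaks were merged at an overlap of 1 nt or more. Python 3.11.15, pandas 2.3.3 and numpy 2.4.6 were used. Per-list differences from coding peaks were tested with exact two-sided sign-flip permutation tests (smallest p 0.00195 with 10 lists), adjusted by Benjamini-Hochberg over 12 tests. The code was tested on simulated lists. A region without a peak has no value in a list and was taken as not called. Named genes are the regions of noncoding genes in 6 or more lists (at most 25 genes), the 10 highest isoform genes, up to 5 noncoding-gene and 3 isoform regions with the highest lower fold per condition-only count, and up to 10 genes per gene list with a region in 2 or more lists, all ranked by lists and then fold; single-list peaks, antisense partners and sequence sets were added after their values were seen. Members, gene lists and the limit of 300 nt were chosen with earlier results of these data known. Alternatives were peak thresholds, overlap, isoform copies, equal list length and leaving out lists. Some results that the rule for named genes gives are not reported here.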

Additional observations from a re-analysis of the deposited data

How the results depend on the processing

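No paired analysis was possible because the 2 replicate lists of a condition share no numbered partner that the labels tie to a batch or culture, and a region in a peak list has no value to block on. Of 78 alternatives of the tests 17 gave an unadjusted p under 0.05. The share of peaks near the start was the most dependent on settings. For all noncoding peaks its difference was −1.75 points with −log10 q of 5 or more, −3.79 with 1 transcript a gene and 0.641 with a limit of 500 nt, where the sign turned. For isoforms it was 2.55 at a fold of 4 or more, 1.15 with 1 transcript a gene and −2.02 with a limit of 100 nt, where it reversed. It was 2.03 to 3.53 without a replicate. Averaging the 2 lists of a condition leaves the mean at 2.78 by construction. The exact sign-flip permutation p was then 0.0625 in place of 0.00586, and 0.0625 is the smallest p that 5 conditions allow. For noncoding genes it was −10.1 with 1 transcript a gene, −6.59 at a fold of 4 or more and −6.35 at −log10 q of 5 or more. It was 2.94 (reversed) at 100 nt, −3.6 at 500 nt and −5.32 to −5.01 without a replicate. Over condition means it stayed at −5.17 by construction, with an exact sign-flip permutation p of 0.125 in place of 0.0254. It was −3.2 without read-through genes, pseudogenes named for a coding gene and peaks past the gene span, an alternative chosen after seeing the data. The log2 fold difference passed unadjusted for all noncoding peaks (0.0588, 1 transcript a gene) and for isoforms (0.0493 at a fold of 4 or more, 0.082 at −log10 q of 5 or more, 0.0846 with 1 transcript a gene). The width difference was −3.05 nt at a fold of 4 or more and −1.8 nt at −log10 q of 5 or more for all noncoding peaks. For noncoding genes it reversed to −2.2, −1.15, −1.35 and −0.75 nt at a fold of 4 or more, at −log10 q of 5 or more, with 1 transcript a gene and in the alternative added later. The cause of these changes was not tested.

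Condition-only counts moved with the peak threshold and the list length. At a fold of 4 or more they were 38 KO-only, 8 WT-only against KO, 13 H2O2-only, 20 UT-only against H2O2, 18 Starve-only, 25 UT-only against Starve and 19 UT-only against WT. With lists shortened to equal length by −log10 q they were 59 KO-only, 7 H2O2-only, 8 UT-only against H2O2, 3 Starve-only, 15 UT-only against Starve, 12 UT-only against WT and 25 WT-only against UT. More regions were thus UT-only than Starve-only in both settings, and more WT-only than UT-only with equal length, each opposite to the counts over the full lists. UT-only against Starve was 23 with an overlap of at least 50% of the shorter peak. Leaving out each list in turn gave 99 to 151 KO-only and 19 to 118 WT-only against KO, 24 to 410 H2O2-only and 60 to 577 UT-only against H2O2. It gave 62 to 645 Starve-only and 47 to 506 UT-only against Starve, and 53 to 574 UT-only and 23 to 107 WT-only between UT and WT, since 1 list then defines a condition. Regions in 6 or more lists numbered 21 at a fold of 4 or more and 25 with equal list length, where 752 were in 1 list. They numbered 47 (without the first KO list) to 60 with a list left out, and 48 without the second WT list. Depth is not given in these files, and shorter lists limit what could repeat.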
